A study of Mus musculus with 6 samples.

Results

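A run of 36 neighbouring genes on mouse chromosome 6 was examined, from Rpia to Ctnna2 (70765720 to 77979815 in mm10, 7.21 Mb), a stretch where most RNAs were lower in epiblast-like cells (EpiLCs) without Smad2 and Smad3 than in wild-type (WT) EpiLCs. The genes were chosen by their position and by this very difference, so the values that compare the genotypes describe the members and are not tested. Of the 36 genes, 35 had an entry among the 24288 gene symbols of the expression table, and Trabd2a, a membrane protease that acts on Wnt proteins, had none under that name. At the RNA level 19 members lay close to 50% of WT, 11 fell less, 2 fell more, and 3 (Fabp1, Atoh8 and Vamp5) had too few reads to be placed. What was measured is RNA, and the number of gene copies was not measured in these samples.

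EpiLCs are embryonic stem cells on their way from the naive state to a state like the early post-implantation epiblast. Here both groups were kept for 48 h, to day 2, in N2B27 medium with 12 ng/ml Fgf2, 20 ng/ml activin A and 1% KSR. The WT cells were the CCE line. The double knockout (DKO) cells were 1 clone made from cells homozygous for the Smad2 tm1Rob null allele by deleting exon 1 of Smad3 with a Cas9 nickase. Both are listed by the authors as 129/Sv//Ev cells. Each genotype gave 3 libraries from independent differentiations of 1 line, so a difference between the lines and an effect of the knockout cannot be told apart.

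The members share a neighbourhood and not a function. Most are housekeeping genes of mitochondria, RNA synthesis and splicing, ubiquitin transfer, metabolism and membrane traffic. Among them sit genes used mainly by muscle, neurons, ciliated cells or liver. In a diploid cell the RNA of most genes follows the number of active gene copies, while some genes adjust their output by feedback, of which Mat2a is a textbook case since its mRNA is stabilised when S-adenosylmethionine is scarce. In bulk RNA, fewer cells that use a gene and less RNA per cell cannot be told apart.

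Promoter sequences are shown for genes that stand for the classes, so that genes that moved alike and unlike can be set beside each other. Sequences are from RefSeq (GRCm38.p6, the mm10 assembly), 5′ to 3′ on the strand of the gene. The windows are the 250 bases before the start that the promoter table gives, and for 16 of 33 members this start lies inside the counted entry, so bases inside its body are not printed. All 250 bases are shown for Rmnd5a, Polr1a and Mat2a, 177 for Kdm3a and 102 for Ctnna2. Rmnd5a (chr6:71440638-71440887, minus strand) and Polr1a (chr6:71908803-71909052, plus strand) lay near 50% of WT. Kdm3a (chr6:71632991-71633167, minus strand) and Mat2a (chr6:72439557-72439806, minus strand) fell less, and Ctnna2 (chr6:77979816-77979917, minus strand) fell most. Motifs were searched on either strand, namely CCAAT, the core bound by NF-Y, and CAGAC and GTCTAGAC, the short and the palindromic Smad motif. Capitals mark matches, all of them CCAAT or its reverse complement in the sequences shown.
Rmnd5a: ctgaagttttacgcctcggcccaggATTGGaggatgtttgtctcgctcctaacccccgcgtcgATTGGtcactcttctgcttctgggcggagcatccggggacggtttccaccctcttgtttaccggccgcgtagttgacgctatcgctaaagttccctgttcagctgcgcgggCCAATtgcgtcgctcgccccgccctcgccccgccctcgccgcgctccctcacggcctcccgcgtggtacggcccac
Polr1a: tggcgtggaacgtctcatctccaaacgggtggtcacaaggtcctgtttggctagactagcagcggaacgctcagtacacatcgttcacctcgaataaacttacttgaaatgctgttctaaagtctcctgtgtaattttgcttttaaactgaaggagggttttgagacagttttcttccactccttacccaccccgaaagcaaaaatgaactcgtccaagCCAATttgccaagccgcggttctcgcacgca
Kdm3a: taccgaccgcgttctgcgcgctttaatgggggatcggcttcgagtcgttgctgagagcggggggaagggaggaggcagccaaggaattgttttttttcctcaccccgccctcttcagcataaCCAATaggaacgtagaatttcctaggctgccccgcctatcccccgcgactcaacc
Mat2a: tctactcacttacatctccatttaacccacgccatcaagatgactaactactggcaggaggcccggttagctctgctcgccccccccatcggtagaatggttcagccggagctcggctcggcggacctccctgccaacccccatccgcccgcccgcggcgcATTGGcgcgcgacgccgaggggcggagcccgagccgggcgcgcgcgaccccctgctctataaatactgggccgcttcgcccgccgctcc
Ctnna2: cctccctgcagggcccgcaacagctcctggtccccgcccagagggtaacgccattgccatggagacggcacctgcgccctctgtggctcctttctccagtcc

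The motifs were counted over the full windows. RefSeq promoters were found for 33 members (those of Rpl34-ps1 and Usp39 were not used here). CAGAC, or GTCTG on the other strand, was present in 10 of the 33, and in 42.2% of all 32851 promoters of the same length. GTCTAGAC, which reads the same on both strands and does not contain the shorter motif, was found for 1 member, Reep1, against 0.167% of all promoters. CCAAT, or ATTGG on the other strand, was present in 11 of the 33 and in 33.8% of all promoters. The members had a median of 14 CpG dinucleotides per window against 6 over all promoters, with a median GC content of 56.0% against 52.4%. By class, the median number of CpGs was 13 near 50% of WT and 14 among genes that fell less. These matches are letters in a window, and binding there was not measured.

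Depth was even, at 57644143 to 63046034 reads in a library when each gene was counted once. Values are normalized reads, that is, reads over the gene body divided by a size factor of the library. Smad3 RNA was at 839 ± 37.0 (SD) in the 3 WT and at 23.6 ± 6.16 in the 3 DKO libraries, a log2 difference of -5.12 ± 0.13 (SE, limma, adjusted p = 7.91e-22). Smad2 RNA was not reduced (4520 ± 86.3 and 5062 ± 109), and since reads over the gene body need not touch the altered part, this value checks nothing. Cell type markers moved between the genotypes. The summed level of 8 epiblast-like markers was 138542 to 141091 in WT and 130901 to 132072 in DKO libraries, with Fgf5 and Pou3f1 called lower and Sox2 higher. That of 8 naive markers was 3342 to 3616 and 5789 to 5958 (6 of 8 called higher, none at 0), and that of 8 trophoblast markers was 1782 to 1878 and 3266 to 3615 (6 of 7 tested called higher, Elf5 near 0 in both). Summed extra-embryonic endoderm markers were 99.9 to 123 in WT and 173 to 187 in DKO (2 of 6 tested called higher, Ttr near 0). Summed fibroblast markers were 1605 to 1677 in WT and 491 to 547 in DKO (2 of 5 tested called lower, Dcn and Col1a2, with Lum, Twist2 and Postn under 10 in both). The part of these shifts in the members' values was not tested.

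Taken as a block, the members gave a steady value in each differentiation. Their summed normalized reads were 107831, 109071 and 108203 in WT replicates 1 to 3 and 61963, 62903 and 62013 in DKO replicates 1 to 3. The ranges were far apart, and the DKO mean was 57.5% ± 0.342 of the WT mean (SE). For comparison, the 30 nearest genes with a mean of at least 100 outside the segment, 15 on each side, summed to 97.1% ± 0.886 of WT. A few genes carry that sum, as Serbp1 alone held 43041 of its 112005 normalized reads in WT. The median flanking gene lay at 88.4% of WT before the segment and at 96.4% after it. Single flanking genes ran from 47.1% to 128%, and the ends of the segment were set on the values of these genes. Within the DKO the median member lay at 53.2%, 56.5% and 54.2% of its WT mean in replicates 1, 2 and 3, so the lowered level did not come from a single library.

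**Figure D1:**
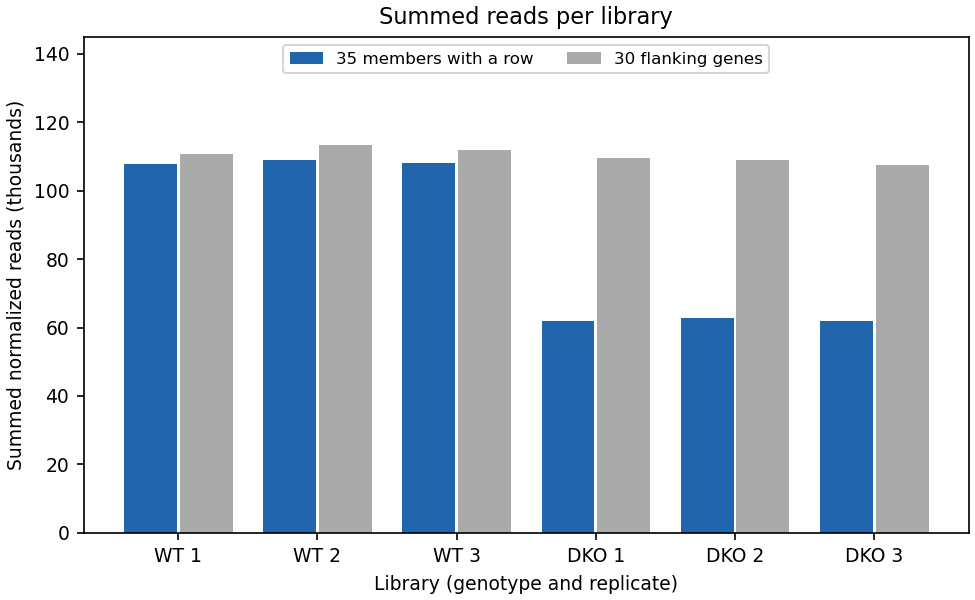
Summed normalized reads (in units of 1000, vertical axis) in each of the 6 libraries (horizontal axis) for the 35 members with an entry (blue bars) and the 30 flanking genes (grey bars). The members sum to at least 107831 in WT and at most 62903 in DKO libraries, whereas the sum of the flanking genes differs little.

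A member was placed by the ratio of its group means. It counted as near 50% when the log2 ratio lay within 0.25 of -1, which spans 42.0% to 59.5% of WT, and only members with a WT mean of at least 50 normalized reads were placed. Near 50% were 19 of the 32 members placed (48.4% to 58.6%, median 51.9%), while this band holds 388 of 13190 genes of such a level in the whole table (2.94%). Another 11 members fell less (60.0% to 89.3%, median 69.4%), and Rnf103 and Ctnna2 fell more. The median over all 32 was 53.1%, with quartiles at 51.5% and 63.0%, and the median of the 13190 genes was 99.8%. In all 32 each DKO library lay below each WT library, a pattern found for 33.0% of the 13190 genes. By the call used for the whole table (limma, adjusted p under 0.05 and a fold change over 1.5), 26 members were lower and 0 higher, whereas 8.04% of 17038 genes tested were called lower and 15.4% were called in either direction. The rule used these very values, so nothing is read from the counts.

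**Figure D2:**
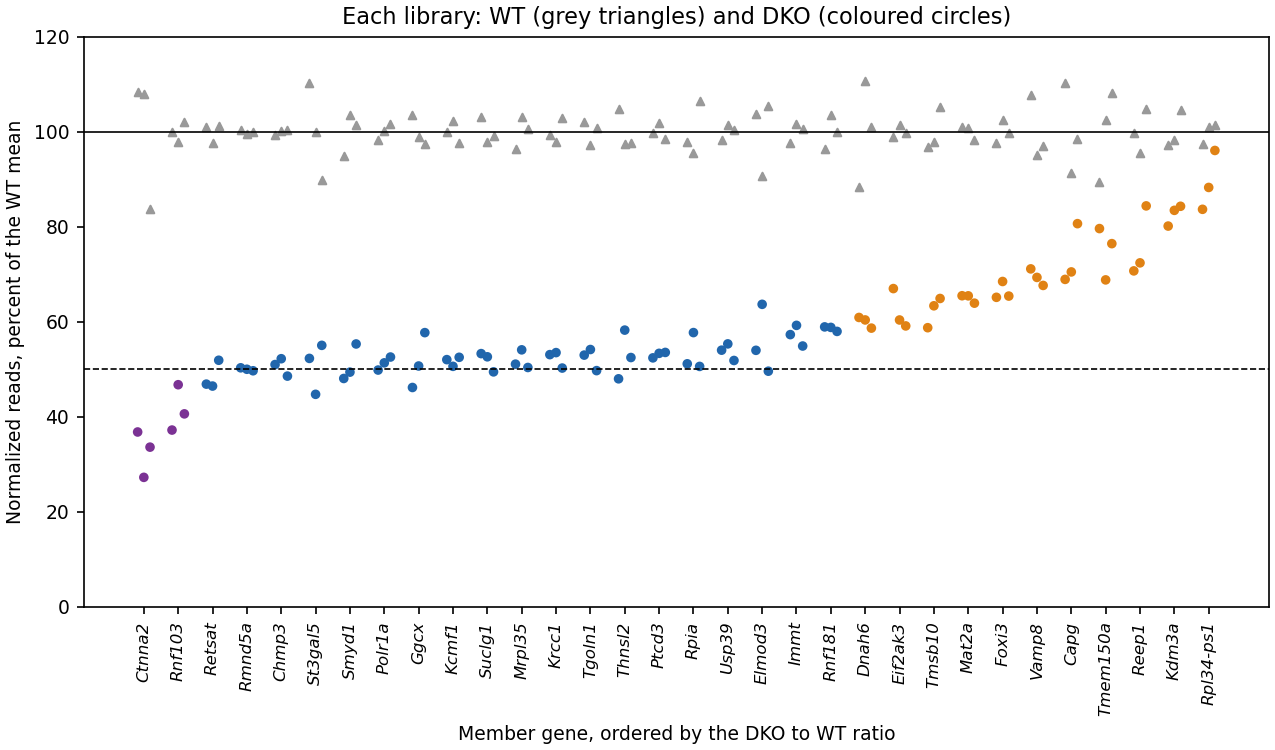
Normalized reads as percent of the gene's WT mean (vertical axis) for the 32 members placed, ordered by ratio (horizontal axis), with WT libraries as grey triangles and DKO libraries as circles (blue near 50%, orange fell less, purple fell more). The dashed line marks 50%. From Retsat to Rnf181 stand the members near 50%, between 48.4% and 58.6%, a range bounded by the definition of that class. From Dnah6 onwards the ratio climbs to 89.3% at Rpl34-ps1.

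The 4 members with products in mitochondria all lay near 50% of WT, from 51.8% to 57.2%. Ptcd3, a protein of the small mitochondrial ribosomal subunit, measured 14189, 14492 and 13999 normalized reads in WT and 7456, 7591 and 7619 in DKO (53.1% ± 0.643). For Immt, which encodes mitofilin, the organiser of cristae junctions, WT libraries gave 10958, 11409 and 11277 and DKO libraries 6426, 6644 and 6157 (57.2% ± 1.43). In both the 3 DKO values were close together and far below WT. Suclg1, the alpha subunit of succinyl-CoA ligase in the citric acid cycle, stood at 3076, 2915 and 2951 in WT and at 1589, 1569 and 1474 in DKO (51.8% ± 1.46). Mrpl35, a protein of the large mitochondrial ribosomal subunit, reached 51.9% ± 1.53.

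Genes of transcription, chromatin and splicing were split. Polr1a, the largest subunit of RNA polymerase I, which makes ribosomal RNA, measured 15875, 16196 and 16419.6 normalized reads in WT and 8056, 8301 and 8499 in DKO (51.3% ± 0.937). Usp39, needed for the mature spliceosome, gave 4526, 4677 and 4621 in WT and 2489.6, 2550.5 and 2389.6 in DKO (53.7% ± 1.14). Both lay near 50% with replicates within a few percent. Kdm3a did not. This demethylase of histone H3 lysine 9 stood at 3609, 3649.6 and 3884 in WT and at 2977, 3100.0 and 3132 in DKO (82.6% ± 2.29), and its highest DKO value was still below its lowest WT value. Smyd1, a methyltransferase of heart and skeletal muscle, reached 50.9% ± 2.59 from a WT mean of 551. Foxi3, a forkhead factor of the pharyngeal and otic ectoderm, was 704, 739 and 718 in WT and 469, 493 and 471 in DKO (66.3% ± 1.42). Atoh8, a basic helix-loop-helix factor, had 8, 6 and 0 reads in WT and 6, 4 and 14 in DKO, which is too few to compare.

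Of the 4 ubiquitin ligase genes 3 lay near 50% and 1 fell more. Rmnd5a, the catalytic RING protein of the CTLH ligase, came closest to 50% of all members, with 7161, 7099 and 7126 normalized reads in WT and 3587, 3565 and 3542 in DKO (50.004% ± 0.22). Kcmf1, a RING finger ligase, followed with 5255, 5370.5 and 5130.4 against 2733, 2659 and 2759 (51.7% ± 0.889). Both had replicates within a few percent of each other. Rnf181 gave 1716, 1843 and 1779 against 1048, 1046 and 1031 (58.6% ± 1.24), the highest ratio inside the band. Without WT replicate 2 it lay just outside the band (log2 ratio -0.746), so its place near 50% is not firm. Rnf103, a ligase of the endoplasmic reticulum membrane, was at 282, 276 and 288 in WT and 105, 132 and 115 in DKO (41.5% ± 2.84). It missed the band by 0.02 on the log2 scale, less than its own error, and lay inside it without DKO replicate 1 (log2 ratio -1.19), so its place among the genes that fell more is not firm.

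Among enzymes and carriers of metabolism 4 of the 5 placed lay near 50%. Rpia, ribose 5-phosphate isomerase of the pentose phosphate pathway, measured 647, 631 and 704 in WT and 338, 381 and 334 in DKO (53.2% ± 2.90). Retsat, retinol saturase, had the lowest ratio in the band (48.4% ± 1.84). Ggcx, which carboxylates vitamin K dependent proteins, lay at 51.5% ± 3.49, and Thnsl2, a relative of threonine synthase, at 52.9% from a WT mean of only 83.0. Mat2a was the exception. It encodes the enzyme that makes S-adenosylmethionine in most cells outside adult liver and took the most reads of all members, 23321, 23292 and 22711 in WT and 15132, 15127 and 14771 in DKO. Its ratio of 65.0% ± 0.762 was one of the most precise of all. Fabp1, a fatty acid binding protein of liver and gut, had 2, 2 and 4 reads in WT and 0 in each DKO library, which is near the floor of 3 reads in both groups.

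Of 7 genes of membranes and traffic that were placed, 4 lay near 50%. Chmp3, an ESCRT-III subunit that helps to cut membrane necks, measured 3651, 3683 and 3687 in WT and 1873, 1919 and 1784 in DKO (50.6% ± 1.09). St3gal5, the synthase of ganglioside GM3, lay at 50.7% ± 4.28, Tgoln1, a protein of the trans-Golgi network, at 52.3% ± 1.52, and Elmod3, which acts on Arf family GTPases, at 55.8% ± 4.90. Vamp8, a SNARE of late endosomes and secretory granules, was less lowered, with 583, 515 and 525 in WT and 385, 375 and 366 in DKO (69.4% ± 2.90). Tmem150a, a membrane partner of phosphatidylinositol 4-kinase, reached 75.0% ± 5.28 and Reep1, which shapes the endoplasmic reticulum in neurons, 75.8% ± 4.76, both with WT means of at most 218. Vamp5, a SNARE of muscle, had 2, 3 and 2 reads in WT and 2, 6 and 0 in DKO.

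The 2 members tied to translation both fell less. Eif2ak3 encodes PERK, the kinase that slows translation when proteins misfold in the endoplasmic reticulum. It stood at 1035, 1063 and 1044 in WT and at 702, 633 and 619 in DKO (62.2% ± 2.49). Rpl34-ps1, a processed copy of the gene for ribosomal protein L34, fell least of all, from 1792, 1859.8 and 1866 to 1539, 1624 and 1767 (89.3% ± 3.79). Its sequence is nearly that of Rpl34, so how many of its reads come from the copy on chromosome 6 is uncertain.

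None of the 4 genes of cytoskeleton and adhesion lay in the band. Tmsb10, thymosin beta 10, which holds actin monomers, was at 779, 788 and 846 in WT and at 473, 509.6 and 522 in DKO (62.3% ± 2.46). Capg, which caps actin filaments, had the largest error of all members, with 541, 447 and 483 against 338, 346 and 395 (73.4% ± 5.50). Dnah6, a dynein heavy chain of cilia, was at 99.9, 125 and 114 against 68.9, 68.3 and 66.3 (60.0% ± 3.94), above the band by 0.01 on the log2 scale, less than its error, and inside it without WT replicate 1 (log2 ratio -0.82). Ctnna2, the alpha-catenin of neurons, measured 184, 183 and 142 in WT and 62.4, 46.2 and 57.0 in DKO (32.6% ± 3.87), the lowest ratio of the members. Its body spans 1098 kb and it averaged 0.154 normalized reads per kb in WT, so its value rests on few reads over a long stretch. The last member placed, Krcc1, lay at 52.3% ± 1.30.

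The genes closest to the edges of the band were Immt and Rnf181 inside, and Dnah6 at 60.0%, Eif2ak3 at 62.2%, Tmsb10 at 62.3% and Rnf103 at 41.5% outside. The level in WT did not order the ratio. Over the 32 members Spearman's rho of the ratio was -0.02 with the WT mean, -0.36 with gene length, 0.23 with WT reads per kb and -0.10 with position (descriptions over neighbouring genes of the same libraries). Scaled by gene length, WT levels ran from 0.154 normalized reads per kb for Ctnna2 and 0.553 for Dnah6, through 137 for Rmnd5a and 574 for Tmsb10, to 3418 for Mat2a and 4454 for Rpl34-ps1. The length is that of the gene body with introns, so long genes look low on this scale. Among 12 members with a WT mean of at least 2000, where errors are smallest, 10 lay near 50% and the others were Mat2a and Kdm3a. The spread between libraries was like that of other genes. For the members the median CV (SD over mean) came to 3.01% among WT and 4.18% among DKO libraries, and 3.43% and 3.36% for the 13190 genes.

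**Figure D3:**
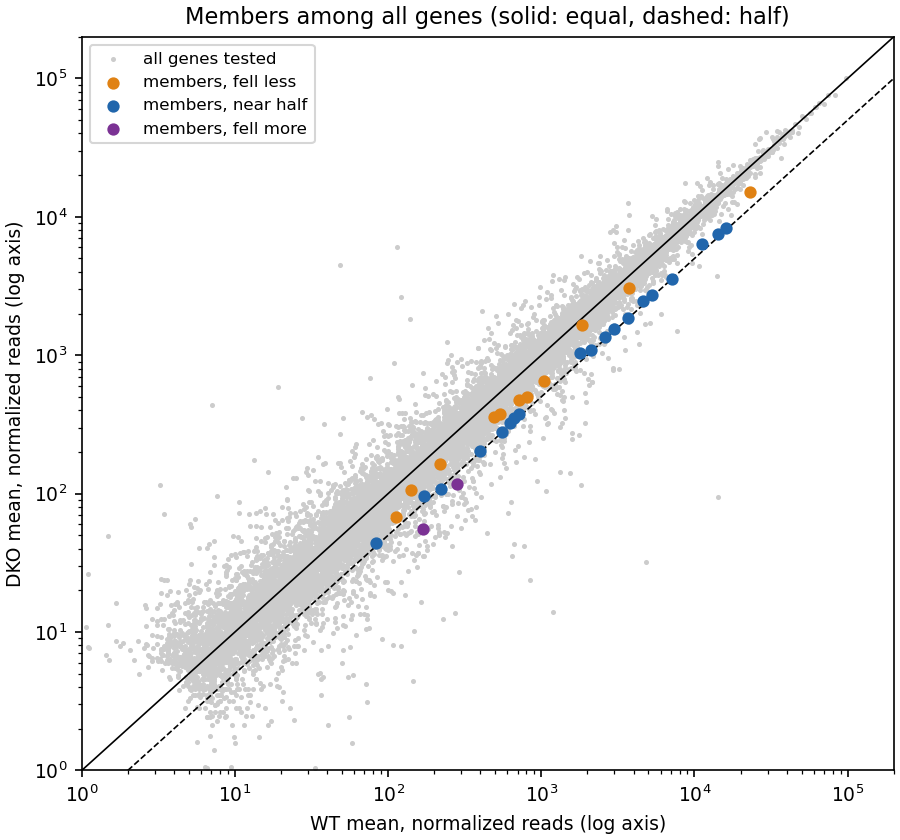
DKO mean against WT mean in normalized reads (both axes logarithmic) for all 17038 genes tested with reads in both groups (grey) and the 32 members placed (coloured by class). The solid line marks equal values and the dashed line 50% of WT. The near 50% members (blue), close to the dashed line by definition, run from a WT mean of 83.0 to 16164. Mat2a and Kdm3a (orange) stand above that line at the upper end.

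Neighbours on opposite strands were compared next. Ptcd3 and Polr1a are transcribed away from each other with 279 bases between their starts, so that the Polr1a sequence printed above holds most of the Ptcd3 promoter window on its other strand, and they lay at 53.1% and 51.3% of WT. Elmod3 and Retsat, with 170 bases between their starts, lay at 55.8% and 48.4%, with a larger error for Elmod3. Mat2a (65.0%) and the antisense RNA Particl (36.6%) overlap at their starts, over 874 bases, and had unlike ratios. At their far ends Ggcx (51.5%) shares 564 bases with Mat2a (65.0%) on the other strand, and Rnf181 (58.6%) shares 51 bases with Tmem150a (75.0%). In all, 18 members overlap another gene of the GENCODE annotation, and where counting ignored strand the reads of such pairs cannot be told apart. Particl averaged 50.9 normalized reads in WT, while Mat2a, with which it shares 874 bases, averaged 3418 per kb of its body. Whether counting used strand was not tested.

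Genes of the same stretch that are not members were looked at next. There were 15 with an entry, of which 11 averaged under 10 normalized reads and 5 entered the test (Cd8a and the 4 with a mean of at least 10). Lower in DKO were 3 of the 5 and higher 0, beside 8.04% of all genes tested called lower and 15.4% called in either direction. With so few genes beside selected members, nothing is read from this count. Tcf7l1, the transcriptional repressor of the Wnt pathway that restrains the pluripotency network, stood at 2255, 2247 and 2021 in WT and at 1323, 1242 and 1277 in DKO (58.9%), inside the band that defines near 50%. The uncharacterised gene 0610030E20Rik gave 516, 538 and 529 against 296, 297 and 259 (53.8%). Both had entered the earlier search along chromosomes that led to this segment, so their values too are a description. Particl, a non-coding RNA antisense to Mat2a that shares 874 bases with it, was at 59.1, 55.8 and 37.9 in WT and at 19.4, 22.6 and 14.0 in DKO (36.6%), a log2 difference past the threshold (limma, adjusted p = 7.41e-06). Mir8112, which lies over the start of Krcc1 and shares its reads, was at 63.1% and was not called (limma, adjusted p = 0.0645).

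**Figure D4:**
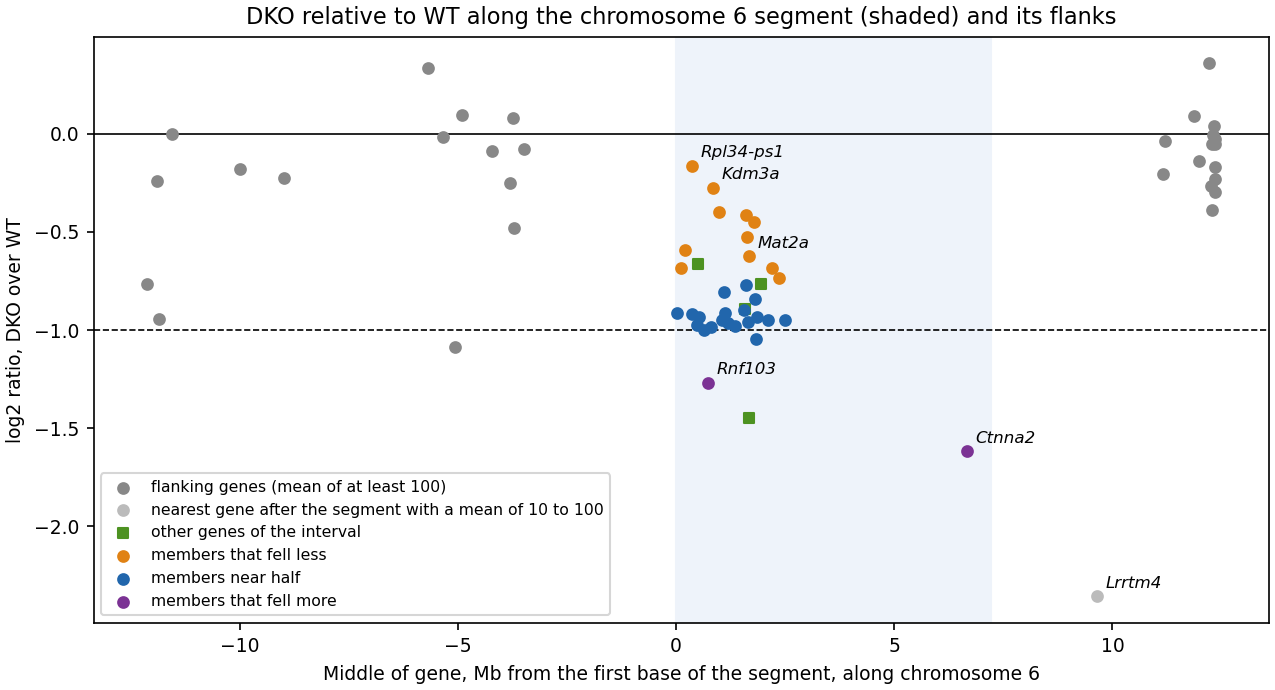
Log2 ratio of DKO over WT means (vertical axis) against the distance in Mb from the first base of the segment (horizontal axis; the segment is shaded), for members by class, other genes of the interval (green squares) and flanking genes (grey). The dashed line marks 50% of WT. Members near 50% lie close to it by definition, all in the first 2.51 Mb, with members that fell less among them. Most flanking genes scatter around 0, and Rnf103, Particl, Ctnna2 and Lrrtm4 lie below the members near 50%.

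The segment is not evenly filled. From Rpia to Suclg1, 34 members are packed into 2.51 Mb. Then 3.60 Mb follow with only 2 entries, none above a mean of 0.702 normalized reads, and Ctnna2 stands alone at the far end. Whether the stretch between Suclg1 and Ctnna2 is lowered can therefore not be read from RNA. Beyond Ctnna2 the nearest gene with a mean of at least 10 is Lrrtm4, a synaptic adhesion protein, 2039 kb away. It measured 75.2, 75.1 and 57.1 in WT and 11.3, 12.6 and 16.6 in DKO, 19.5% ± 2.86 of WT (log2 difference -2.28 ± 0.21, limma, adjusted p = 7.23e-10), below the ratio of any member placed.

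Better measured flanking genes start farther out, and since the ends of the segment were set on their values these too are a description. Serbp1, 3476 kb before Rpia, lay at 94.7% of WT and Gcfc2, 3931 kb after Ctnna2, at 86.8%. The 15 nearest genes before the segment had a median ratio of 88.4% (47.1% to 126%) and the 15 after it 96.4% (76.4% to 128%). None of the 15 after the segment was in the band. Before it, Ndnf at 5053 kb and Nap1l5 and Abcg2 at about 12 Mb were in the band (47.1%, 52.0% and 58.8%). Genes between Ndnf and Nap1l5 ran from 85.6% to 126%, and Nap1l5 lies within the body of Herc3, which was at 84.7%. Ndnf, Nap1l5, Abcg2 and Herc3 were named after their values were seen.

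Genes elsewhere in the genome that work with the members or belong to their families were listed to see whether they moved too. Across 13 lists, 154 of 160 genes were tested, 8 were called lower and 1 higher (5.84%, beside 15.4% of all genes), and the median log2 difference was 0.03 beside 0.00 for all genes. No gene was called in the lists for RNA polymerase I (0 of 18), MICOS and membrane bridging (0 of 11), the citric acid cycle (0 of 9), CTLH (0 of 10), ESCRT-III (0 of 12), H3K9 demethylases (0 of 8), the pentose phosphate pathway (0 of 8) and tri-snRNP proteins (0 of 14).

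The relatives and partners of members named next, encoded outside the segment, lay from 93.5% to 138% of WT. Other relatives in the lists were lower, among them Mat1a and Eif2ak4, which are given below. Over whole lists, the log2 difference ran from -0.25 to 0.46 for CTLH and from -0.21 to 0.22 for RNA polymerase I. It ran from -0.28 to 0.22 for H3K9 demethylases and from -0.28 to 0.23 for MICOS and membrane bridging. Rmnd5b, the sister of Rmnd5a, lay at 99.9% ± 2.28 of WT (log2 difference -0.00 ± 0.05), and the other core subunits Maea and Gid8 at 117% and 138%. Polr1b, the second largest subunit of RNA polymerase I, lay at 93.5% ± 0.953. For Suclg1, both beta subunits that it pairs with were higher without passing the fold threshold, with Suclg2 at 130% ± 2.91 and Sucla2 at 113% ± 3.24. Kdm3b lay at 106%, Ctnna1, the alpha-catenin of epithelia, at 96.1%, and Mat2b, the regulatory subunit bound to the Mat2a product, at 95.9%. Tmsb4x, the main thymosin beta, lay at 117% ± 2.96.

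Genes that did pass the threshold stood in 5 lists. In the list for Eif2ak3 3 of 16 were lower (18.75%, beside 8.04% of all genes called lower and 15.4% called in either direction). All 3 are stress genes downstream of eIF2alpha phosphorylation, and a link to the level of Eif2ak3 was not tested. Trib3, a pseudokinase that feeds back on Atf4, fell from 1067, 987 and 1125 to 346, 333 and 377 (log2 difference -1.59 ± 0.06, limma, adjusted p = 4.72e-18). Chac1, which degrades glutathione, fell from 865, 859.9 and 1095 to 135, 111 and 122 (-2.92 ± 0.09, limma, adjusted p = 2.53e-20). Atf3, a stress-induced factor, fell from 249, 228 and 221 to 46.8, 62.0 and 48.2 (-2.14 ± 0.12, limma, adjusted p = 4.24e-14). In each, the 3 DKO values lay far below the WT range. Atf4 itself lay at 76.8% ± 2.53 and Ddit3 at 72.2% ± 4.87, under the fold threshold, and the other eIF2alpha kinases Eif2ak1, Eif2ak2 and Eif2ak4 at 118%, 102% and 87.4%. The median log2 difference of this list was -0.20.

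The other calls were scattered over small lists, beside 8.04% of all genes called lower, and nothing is read from their counts. Among cadherins and catenins 2 of 9 were lower, N-cadherin (Cdh2, log2 difference -0.79 ± 0.05) and P-cadherin (Cdh3, -0.62 ± 0.05), while beta-catenin (Ctnnb1) lay at 117%. Mat1a, the liver form of the Mat2a enzyme, dropped from 33.9 ± 6.30 to 14.0 ± 5.91 (1 of 10 called in its list). Of 17 actin genes Scin was lower (-0.69 ± 0.18) and Vil1 higher (0.81 ± 0.16), both at few reads. Stx7, a syntaxin of late endosomes, fell from 1339 ± 34.6 to 727 ± 46.5 (-0.88 ± 0.05), the only one of 12 SNARE genes called.

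**Figure D5:**
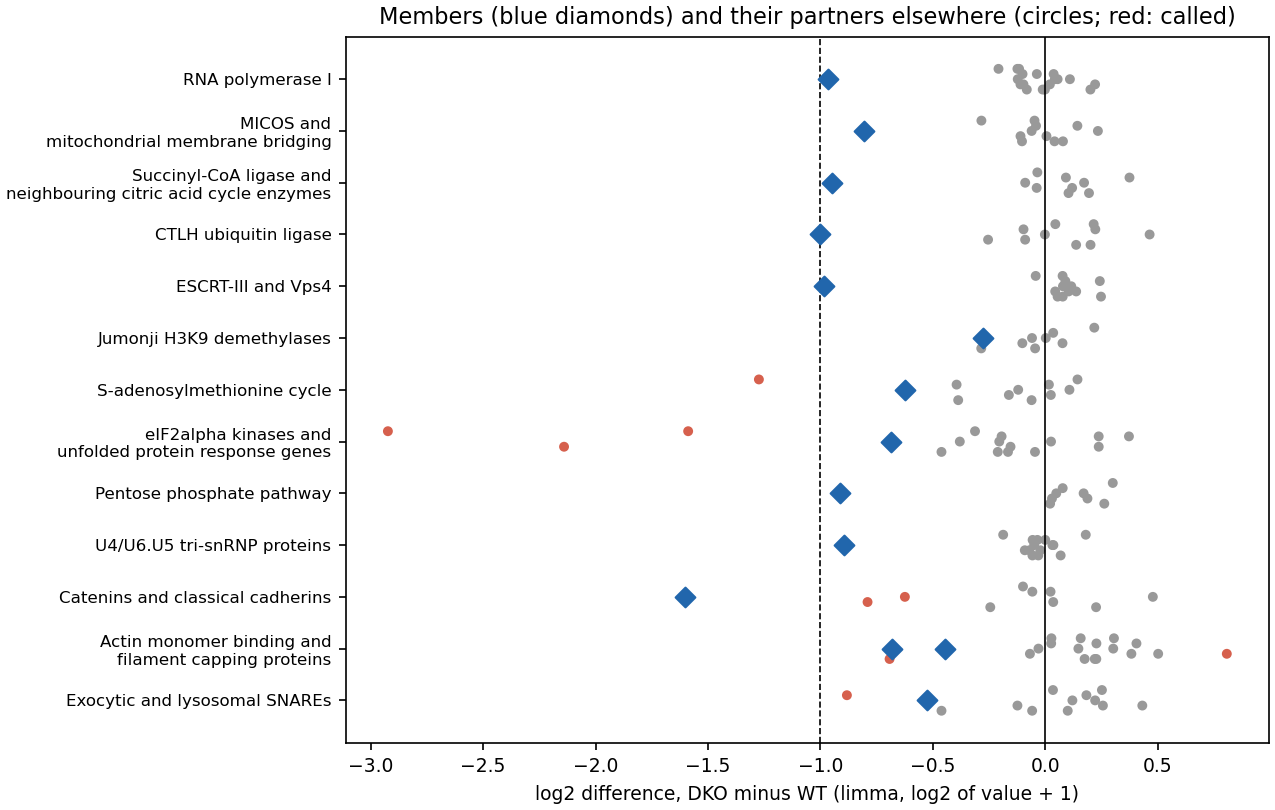
Log2 difference between DKO and WT (horizontal axis, limma on log2 of value + 1) for the members that head each list (blue diamonds) and for their partners and relatives outside the segment (circles, red where called), by list (vertical axis). Most circles lie near 0 while the diamonds of 8 lists lie between -0.80 and -1.60, and the called genes Chac1 and Atf3 of the Eif2ak3 list lie farthest to the left.

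The choice of transcript entry hardly mattered to the members. Capg, Kdm3a and Tmsb10 have several entries with different reads. With the entry of the fewest reads their ratios were 74.2%, 82.7% and 62.1%, so Kdm3a and Capg kept their places among the genes that fell less, as did Tmsb10.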

How the data were processed

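Total RNA of 3 WT and 3 DKO libraries was depleted of ribosomal RNA, prepared strand-specifically and sequenced paired-end. The authors used Bowtie2, STAR (mm10) and SAMtools and counted reads over refGene gene bodies, read here as including introns, which the methods do not spell out. Tool versions, and whether counting used strand, are not given in the sources used here. The authors deposited a signal, in which the read count of each entry was divided by the size factor of its library. Reads were recovered by dividing by the step of 1 read (100% whole within 0.01, size factors 1.76 to 1.93). The authors also deposited a table of their own comparison (means, log2 fold changes, standard errors, test statistics and p-values), which was not used.

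One entry per symbol, that with the highest total, was kept. Entries without a symbol (138 of 33812, 0.517% of reads) were left out. Positions came from RefSeq for 98.9% of entries. The main test was limma (version 3.58.1, R 4.3.3) with an intensity trend on log2(value + 1), a scale that understates changes of low genes, over 17038 genes that passed filterByExpr of edgeR (version 4.0.16) on recovered reads, with Benjamini-Hochberg adjustment and calls at 0.05 and a fold change of 1.5. edgeR and DESeq2 (version 1.42.0) on recovered reads, pseudocounts, filters, scalings, bands and left-out replicates were alternatives. The procedure was tested on simulated reads. Ratios are of group means without a pseudocount, with a standard error over libraries. P-values measure the spread between 3 differentiations of 1 line per genotype. The variance between libraries of 1 genotype was 3.00 to 4.61 times that of sampling alone, so none was a repeat. Errors cover counting and replicate spread only.

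Named were all members, the nearest measured gene on each side, other genes of the interval with a mean of at least 10, called genes and relatives in the 13 lists, Smad2 and Smad3. One named item is not reported here. The members, lists, roles and bands were chosen with earlier results of these data known.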

Additional observations from a re-analysis of the deposited data

How the results depend on the processing

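The members' ratios rest on high counts but on 1 line per genotype, and levels under about 10 normalized reads carry no direction. No called result changed sign. The log2 ratio of Vamp5, at 0 to 6 reads per library, ranged from -1.25 to 0.72 with 1 replicate left out. The number of members near 50% of WT was 19 and ranged from 18 to 20 with 1 replicate left out, and was 16 with a band of 0.15 and 23 with a band of 0.35. The members' median log2 difference of -0.91 became -0.89 with a pseudocount of 10 and -0.84 with all entries kept (49 entries of members), and ranged from -0.93 to -0.88 with 1 replicate left out. Without Mat2a, the member with the most reads, the summed reads of the members were 55.5% of WT in place of 57.5%. The number of genes called over the whole table was 2623 and ranged from 2096 with a pseudocount of 10 to 3904 with all entries kept, and from 2529 to 2610 with 1 replicate left out. The genes called in the lists numbered 8 to 11 (9 as reported), and Scin was no longer called with a pseudocount of 10 (log2 difference -0.58). Non-members of the interval called numbered 3 or 4. The causes of these shifts were not tested.

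Deviations of same-numbered libraries correlated by 0.01, -0.03 and 0.04 over 11930 genes, so the numbers were not taken to pair them. With the replicate block, 2602 genes were called, the median of the members stayed at -0.91, 19 members lay near 50% and the summed ratio was 57.5%.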
